A study of Mus musculus with 13 samples.

Results

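Acute phase proteins are plasma proteins whose output by the liver changes during inflammation, and 10 genes of this class were examined: the serum amyloid A genes Saa1, Saa2 and Saa3, the orosomucoid genes Orm1, Orm2 and Orm3, and Hamp, Lbp, Hp and Serpina3n. They were found by gene symbol in the annotation of the array, and each gene was read from the probe set with a single symbol that had the highest mean. This gave 9 of the 10 genes among 22180 genes on the array, and all 9 were among the 13308 genes bright enough to be tested. Saa1 had no probe set of its own. A probe set listed for both Saa1 and Saa2 is described beside the 9 genes and cannot be assigned to either.

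The livers came from male C57Bl/6J mice, and their RNA was hybridised to 13 arrays. All mice ate a diet with 60% fat from 6 weeks of age, for 4 weeks before and 4 weeks during the experiment. The HFD group (4 arrays) stayed on that diet alone, the CANA group (4 arrays) also received canagliflozin at 25 to 30 mg/kg, and the CR group (5 arrays) was held to the weight of the CANA group by a caloric restriction of 15 to 30%. Canagliflozin blocks the glucose transporter SGLT2 of the kidney tubule, and the restricted mice were the weight-matched control. No group on a low-fat diet and no group given an inflammatory stimulus was analysed here, and the labels do not say whether each array is a separate animal, so p-values measure only the spread between these arrays. All values are log2 units as the authors deposited them, so a difference of 1 is a 2-fold difference. A gene was called when its limma p, adjusted by Benjamini-Hochberg over all 13308 genes, was under 0.05. Hepatocyte markers such as Alb and Apob averaged 12.63 to 12.77 in every array, so the arrays carried the labelled tissue. The arrays also bear a serial number in their labels, and each group had arrays in both the 7 numbered 1 to 8 and the 6 numbered 9 to 14. A difference within 1 of these sets rests on few arrays of each group.

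In hepatocytes, the acute phase genes are switched on mainly by interleukin-6 through the receptor subunit gp130 and STAT3, and by interleukin-1 and tumour necrosis factor through NF-kB, with C/EBP factors and glucocorticoids acting on the same promoters. The serum amyloid A proteins travel on high density lipoprotein, orosomucoids are carriers of small lipophilic molecules, haptoglobin binds free haemoglobin, Lbp carries bacterial lipopolysaccharide to its receptors and Serpina3n is a serine protease inhibitor. Hamp encodes hepcidin, the hormone that removes the iron exporter ferroportin from cells, and it responds to bone morphogenetic proteins and iron as well as to interleukin-6. Obesity is known as a state of low-grade inflammation in which several of these proteins circulate at higher levels.

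Several of the genes are recent duplicates, and their promoters are shown to compare the copies. Transcripts and array probes were not compared, so whether the copies share probes was not tested. Promoters were taken from RefSeq (GRCm38.p6) for 7 of the 10 genes, as the 250 bases before a transcription start, written 5′ to 3′. That of Saa3 lay wholly within the annotated gene, and those of Saa1, Orm3 and Serpina3n partly. Motif matches were counted on these stretches only. The 3 genes without an entry were Orm1, Lbp and Hp. Saa1, on the minus strand at chr7:46742981-46743230, and Saa2, on the plus strand at chr7:46751583-46751832, lie head to head. Their promoters were identical at 238 of 249 aligned bases (95.6%). The capitals mark a match to TTGCNNAA, a motif of C/EBP factors, searched on both strands.
Saa1: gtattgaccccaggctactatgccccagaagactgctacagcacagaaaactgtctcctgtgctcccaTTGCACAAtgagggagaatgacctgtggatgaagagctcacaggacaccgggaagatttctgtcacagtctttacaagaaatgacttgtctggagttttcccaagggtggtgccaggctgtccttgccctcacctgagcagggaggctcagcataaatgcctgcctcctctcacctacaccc
Saa2: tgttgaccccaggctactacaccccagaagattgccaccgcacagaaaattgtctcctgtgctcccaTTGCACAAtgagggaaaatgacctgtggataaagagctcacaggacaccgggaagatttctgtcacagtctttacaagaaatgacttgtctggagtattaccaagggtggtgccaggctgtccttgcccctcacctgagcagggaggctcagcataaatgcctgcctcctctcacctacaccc

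The same motif lay in the promoters of Orm2, at chr4:63362199-63362448, and Orm3, at chr4:63355908-63356157, both on the plus strand. These promoters were identical at 218 of 245 aligned bases (89.0%).
Orm2: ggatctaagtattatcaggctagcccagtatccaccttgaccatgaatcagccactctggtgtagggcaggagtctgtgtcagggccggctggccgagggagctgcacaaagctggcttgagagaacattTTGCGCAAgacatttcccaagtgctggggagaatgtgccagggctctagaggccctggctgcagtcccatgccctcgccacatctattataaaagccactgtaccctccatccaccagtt
Orm3: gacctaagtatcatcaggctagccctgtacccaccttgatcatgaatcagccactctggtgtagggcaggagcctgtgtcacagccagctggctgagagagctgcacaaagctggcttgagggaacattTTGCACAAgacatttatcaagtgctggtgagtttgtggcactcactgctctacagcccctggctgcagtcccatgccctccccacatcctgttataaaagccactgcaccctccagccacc

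A match to TTGCNNAA was present in 5 of the 7 promoters, those of Saa1, Saa2, Saa3, Orm2 and Orm3, and in 9.56% of the 32851 promoters of that length in the table. The 5 are not independent of each other, since both pairs above are near copies. Hamp differed in kind. Its promoter, on the minus strand at chr7:30944030-30944279, held the palindrome GGCGCC of bone morphogenetic protein response elements and a STAT motif, TTCNNNGAA, and both are in capitals. The promoter of its paralog Hamp2, on the minus strand at chr7:30924182-30924431, was identical at 227 of 247 aligned bases (91.9%), held the STAT motif and had no match to GGCGCC. The first motif was found in 9.59% of all promoters and the STAT motif in 7.02%.
Hamp: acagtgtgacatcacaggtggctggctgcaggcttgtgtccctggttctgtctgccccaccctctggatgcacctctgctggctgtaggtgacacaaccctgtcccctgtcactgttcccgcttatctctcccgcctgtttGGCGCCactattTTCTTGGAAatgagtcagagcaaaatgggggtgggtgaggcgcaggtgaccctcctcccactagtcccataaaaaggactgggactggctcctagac
Hamp2: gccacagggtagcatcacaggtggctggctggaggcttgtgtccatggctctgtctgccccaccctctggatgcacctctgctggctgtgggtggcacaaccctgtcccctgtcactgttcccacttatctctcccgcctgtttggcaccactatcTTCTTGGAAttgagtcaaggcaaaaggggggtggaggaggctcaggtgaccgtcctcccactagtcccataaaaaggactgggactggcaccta

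Of the other motifs searched, NF-kB (GGGA and CC with 4 bases between them, in 17.6% of all promoters) matched in Serpina3n alone among the 7. The interleukin-6 response motif CTGGGAA (in 9.10% of all promoters) and the full glucocorticoid receptor palindrome (AGAACA and TGTTCT with 3 bases between them, in 0.00913%) matched in none. These matches describe letters within 250 bases and show no binding.

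None of the 9 tested acute phase genes differed between any of the 3 groups by the limma test. The lowest adjusted p was 0.589 in CANA against HFD, 0.999 in CR against HFD and 0.519 in CANA against CR. Across all genes, the shares called were 0.165%, 0% and 0.15%, and a count of 0 of 9 does not stand apart from such shares. The arrays of the groups overlapped for all 9 genes in all 3 comparisons. Groups without overlap were found for 4.9%, 1.17% and 2.93% of all tested genes, so 0 of 9 does not stand apart here either. In 5 of the 9 genes the arrays of 1 group differed widely, and the individual arrays are therefore given.

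**Figure D1:**
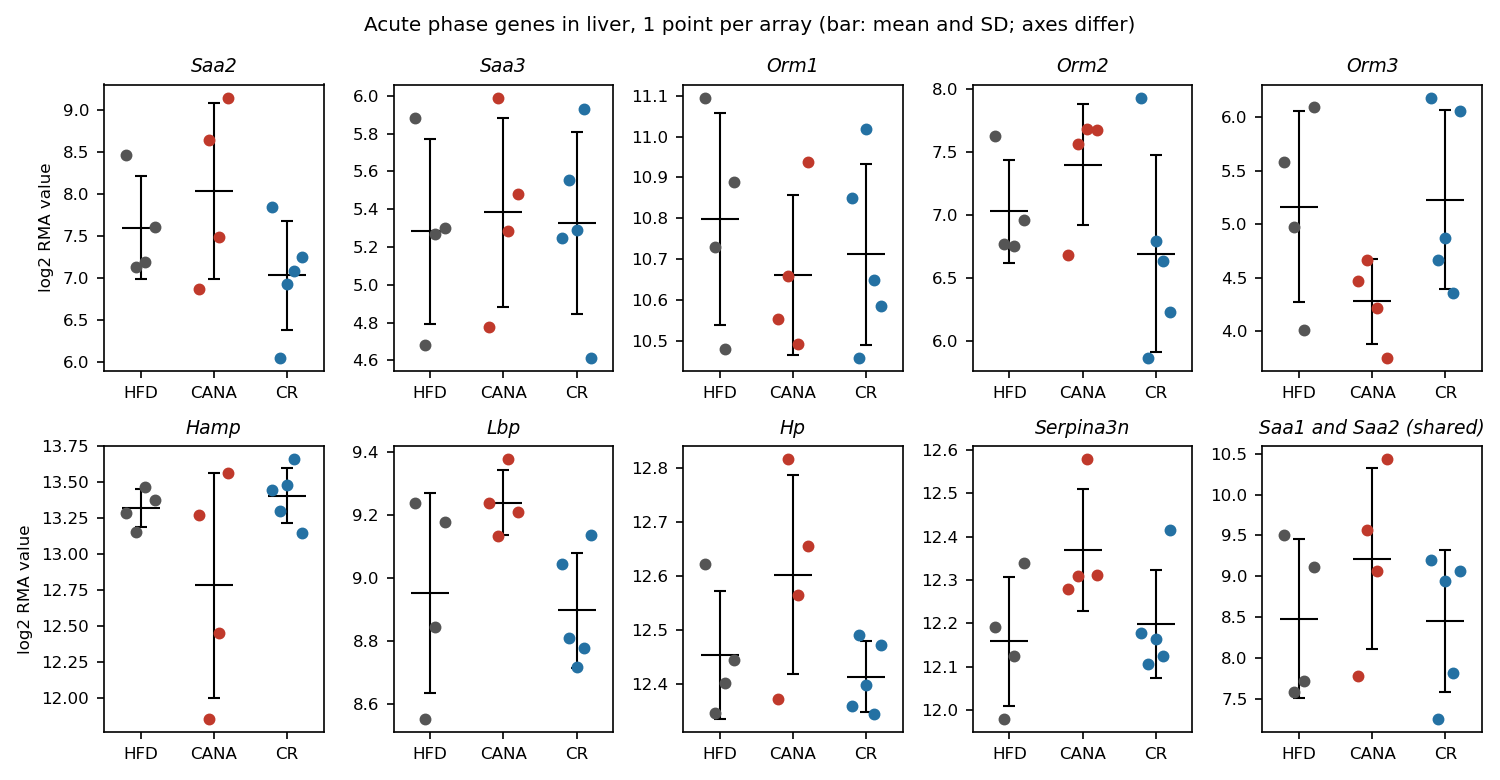
Each panel plots the log2 value of 1 gene in every array, grouped as HFD (n = 4), CANA (n = 4) and CR (n = 5), with the group mean and SD as black bars; the vertical axes differ between panels and do not start at 0. The groups overlap in every panel, and in Hamp the lowest CANA arrays, at 11.85 and 12.45, lie apart from the other arrays.

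Saa2, which encodes a serum amyloid A that the liver secretes in acute inflammation, stood at 8.46, 7.13, 7.19 and 7.60 in HFD arrays 1 to 4. In CANA arrays 1 to 4 it stood at 6.87, 8.64, 7.49 and 9.15, and in CR arrays 1 to 5 at 7.85, 6.05, 6.93, 7.08 and 7.25. The highest CANA arrays, 2 and 4, exceeded every HFD and CR array, while CANA array 1 lay below every HFD array. From the lowest array to the highest, Saa2 differed 8.54-fold, and within CANA alone 4.85-fold. The means were 7.60 ± 0.61 for the HFD arrays, 8.03 ± 1.04 for the CANA arrays and 7.03 ± 0.65 for the CR arrays (SD, n = 4, 4 and 5). CANA exceeded HFD by 0.44 (95% interval -0.51 to 1.38, limma adjusted p = 0.857), which is smaller than the SD of either group. Among arrays with serial numbers 1 to 8 it was -0.045, among those with 9 to 14 it was 0.92. It was 0.066 without CANA array 4 and 0.83 without CANA array 1. The CR minus HFD difference was -0.57 (95% interval -1.46 to 0.33, adjusted p = 0.999).

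The probe set listed for both Saa1 and Saa2 had the same highest and lowest array as Saa2 but differed from it in others. It stood at 9.51, 7.59, 7.71 and 9.11 in HFD, at 7.78, 9.57, 9.06 and 10.44 in CANA, and at 9.20, 7.25, 8.94, 7.81 and 9.07 in CR. Array 4 of CANA was again the highest and array 2 of CR the lowest, 9.12-fold apart. CANA array 1 lay above HFD arrays 2 and 3, whereas for Saa2 it lay below every HFD array. When this probe set was added to the fit, CANA exceeded HFD by 0.73 (SE 0.56, limma adjusted p = 0.783). CR and HFD differed by -0.03 (SE 0.53, adjusted p = 0.999), beside -0.57 for Saa2. Over the 13 arrays it followed Saa2 with a Pearson r of 0.87 and a Spearman rho of 0.91, a description of probe sets that may share probes.

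Saa3, the serum amyloid A made largely by macrophages and fat cells, stood above 62.6% of the genes on the array, where testing began at the 40th percentile. Its means were 5.28 ± 0.49 (HFD), 5.38 ± 0.50 (CANA) and 5.33 ± 0.48 (CR). The groups spanned nearly the same interval, 4.68 to 5.88 in HFD, 4.78 to 5.99 in CANA and 4.61 to 5.93 in CR. The CANA minus HFD difference of 0.10 had a 95% interval of -0.51 to 0.71 (limma adjusted p = 0.965). Its profile followed that of Saa2 weakly (r = 0.38, rho = 0.27). CANA array 2, high in Saa2, was also the highest array for Saa3, but CANA array 4, the highest for Saa2, stood at 5.48.

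The orosomucoids lie side by side on chromosome 4, in the order Orm1, Orm3 and Orm2, and were correlated to different degrees. Orm1 was the steadiest, with 10.80 ± 0.26 (HFD), 10.66 ± 0.20 (CANA) and 10.71 ± 0.22 (CR), and all arrays lay within a 1.56-fold range. Its differences were -0.14 in CANA against HFD, -0.09 in CR against HFD and -0.05 in CANA against CR (limma adjusted p = 0.866, 0.999 and 0.955). Orm2 stood at 7.63, 6.77, 6.75 and 6.96 in HFD. In CANA it stood at 6.68, 7.56, 7.68 and 7.67, so 3 of the 4 arrays were tightly together and array 1 stood below them. In CR it stood at 7.93, 5.87, 6.79, 6.64 and 6.23, where array 1 was the highest of all 13 and array 2 the lowest, a 4.18-fold range. CANA exceeded HFD by 0.37 (95% interval -0.37 to 1.11, adjusted p = 0.836), or 0.61 without CANA array 1. The arrays with serial numbers 1 to 8 gave -0.077 and those with 9 to 14 gave 0.82.

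Orm3 had a different order of arrays. It stood at 5.58, 4.97, 4.02 and 6.09 in HFD and at 6.18, 4.67, 4.87, 4.36 and 6.05 in CR. The 4 CANA arrays were at 4.47, 4.67, 4.22 and 3.75, and none of them reached the upper values of the other groups, though HFD array 3 and CR arrays 2 and 4 lay among or next to them. CANA was below HFD by a difference of -0.88 (95% interval -1.80 to 0.03, limma adjusted p = 0.589) and below CR by -0.95 (95% interval -1.81 to -0.08, adjusted p = 0.552). The difference from HFD had the same sign within serial numbers 1 to 8 (-0.70) and 9 to 14 (-1.06). It was -0.58 without HFD array 4 and -1.27 without HFD array 3. In CANA, Orm3 was close to 3.95, the dimmest level tested. Against CR it was -0.35 without CR arrays 1 and 5, a choice made after the values were seen. Across the 13 arrays r was 0.48 for Orm1 with Orm2, 0.36 for Orm1 with Orm3 and 0.02 for Orm2 with Orm3. After the group means were subtracted these were 0.62, 0.32 and 0.35.

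Hamp was uniform in HFD and CR and spread out in CANA. HFD arrays stood at 13.28, 13.15, 13.46 and 13.37, and CR arrays at 13.44, 13.30, 13.48, 13.66 and 13.15. CANA arrays 1 and 4 stood at 13.27 and 13.56, within that range. CANA array 2, at 11.85, and CANA array 3, at 12.45, were below every other array. The SD was 0.13 in HFD, 0.19 in CR and 0.78 in CANA, where the lowest and the highest array were 3.27-fold apart. The CANA minus HFD difference was -0.54 (95% interval -1.10 to 0.02, limma adjusted p = 0.596) and the CANA minus CR difference -0.62 (95% interval -1.16 to -0.09, adjusted p = 0.530). Without CANA array 2 these were -0.23 and -0.31. The low arrays had serial numbers 4 and 9, so 1 lay in each serial-number set. Array medians over all probe sets ran from 4.07 to 4.13, but the authors' processing makes them nearly equal, so they do not test the low arrays. Alb, the albumin gene, averaged 14.02 (HFD), 13.97 (CANA) and 14.03 (CR). It stood at 14.00 in CANA array 2 and 14.02 in CANA array 3. Alb ran only from 13.91 to 14.09 in HFD and less widely in CANA and CR, so it does not test the low arrays either. By level, Hamp stood above 99.9% of the genes on the array.

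Lbp, the lipopolysaccharide-binding protein gene, was the member whose CANA arrays lay closest together. They stood at 9.24, 9.13, 9.38 and 9.21. HFD arrays stood at 9.24, 8.55, 8.85 and 9.18, and CR arrays at 9.04, 8.81, 8.72, 8.78 and 9.14. HFD arrays 1 and 4 and CR array 5 lay above the lowest CANA array, so the groups overlapped. CANA exceeded HFD by 0.29, or 1.22-fold (95% interval -0.01 to 0.59, limma adjusted p = 0.596), and CR by 0.34, or 1.27-fold (95% interval 0.06 to 0.63, adjusted p = 0.519). The differences from HFD were 0.29 within serial numbers 1 to 8 and 0.28 within 9 to 14, and leaving out 1 array gave 0.15 (without HFD array 2) to 0.38. The HFD arrays with serial numbers 1 to 8 stood at 9.24 and 8.55, so the closeness of 0.29 and 0.28 does not measure precision. CR and HFD differed by -0.06 (95% interval -0.34 to 0.23).

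Serpina3n and Hp, both abundant plasma proteins, varied within narrow limits. Serpina3n stood at 12.19, 11.98, 12.13 and 12.34 in HFD, at 12.28, 12.31, 12.58 and 12.31 in CANA and at 12.18, 12.11, 12.16, 12.13 and 12.42 in CR. Its CANA minus HFD difference was 0.21, or 1.16-fold (95% interval -0.01 to 0.44, limma adjusted p = 0.601), and it was 0.21 in both serial-number sets. Hp ran from 12.35 to 12.62 in HFD, from 12.37 to 12.82 in CANA and from 12.34 to 12.49 in CR. Its CANA minus HFD difference was 0.15 (95% interval -0.07 to 0.36, adjusted p = 0.747), which was 0.078 without CANA array 2 and 0.23 without CANA array 1. CR differed from HFD by -0.04 (95% interval -0.24 to 0.16). For Hp, the interval of CANA against HFD holds differences of up to 1.29-fold higher and of 0.955-fold, and for Saa2 it holds 0.702-fold to 2.61-fold. The interval was thus narrow for Hp and wide for Saa2.

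**Figure D2:**
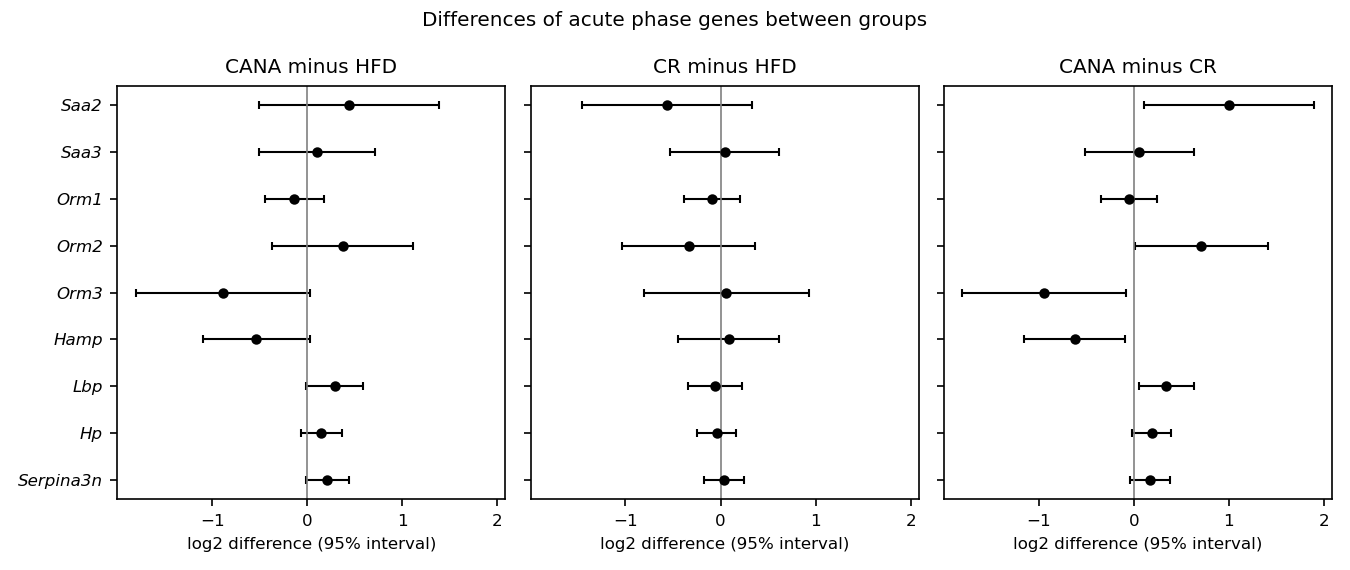
Points show the log2 difference of each of the 9 tested genes in CANA minus HFD, CR minus HFD and CANA minus CR, and bars its 95% interval from the limma fit, which is not adjusted for the number of genes. All intervals cross 0 in CANA minus HFD and in CR minus HFD, and in CANA minus CR those of Saa2, Orm2, Orm3, Hamp and Lbp do not.

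As a group, the acute phase genes showed no common direction. In CANA against HFD 6 of 9 were above zero and 3 below, with a median of 0.15, beside a median of -0.01 over all tested genes. The genes above zero were Saa2, Saa3, Orm2, Lbp, Hp and Serpina3n, and those below were Orm1, Orm3 and Hamp. In CR against HFD 4 were above and 5 below (median -0.04, and -0.01 over all genes). In CANA against CR 6 were above and 3 below (median 0.17, and -0.00373 over all genes), and the split was the same as against HFD; both comparisons use the same CANA arrays. At an unadjusted limma p under 0.05, the counts of members were 0, 0 and 5 of 9, where 8.82%, 3.74% and 8.43% of all genes passed. The 5 in CANA against CR were Lbp (unadjusted p = 0.0217), Hamp (0.0244), Saa2 (0.0310), Orm3 (0.0339) and Orm2 (0.0481), with 3 above zero and 2 below. Their limma adjusted p values were 0.519 to 0.585. Saa2 differed by 1.00 (95% interval 0.10 to 1.90), and by 0.63 without CANA array 4. The probe set shared by Saa1 and Saa2 differed by 0.76 (95% interval -0.36 to 1.88), at an unadjusted limma p of 0.170. Orm2 differed by 0.71, with 0.26 among serial numbers 1 to 8 and 1.24 among 9 to 14. Orm3, Hamp and Lbp were given above.

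The spread between arrays set these genes apart from one another. The SD within groups was 0.78 for Saa2, 0.75 for Orm3, 0.60 for Orm2, 0.49 for Saa3 and 0.45 for Hamp, against a median of 0.17 over all tested genes. These 5 of the 9 genes were each more variable than 98% of tested genes. For Hamp this SD came mainly from CANA (0.78), beside 0.13 in HFD and 0.19 in CR. Lbp and Orm1, at 0.22 and 0.23, stood at the 73.7th and 77.6th percentile. Hp, at 0.13, and Serpina3n, at 0.14, were below the median of all genes. To compare genes of like level, each was also ranked among tested genes within 0.5 log2 units of its own mean. Saa2, Saa3, Orm2 and Orm3 had a larger SD than 99.5%, 99.0%, 99.3% and 99.9% of such genes. Hamp exceeded 96.8% of only 31 such genes, and Hp and Serpina3n lay near the middle, at 55.8% and 62.3%.

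**Figure D3:**
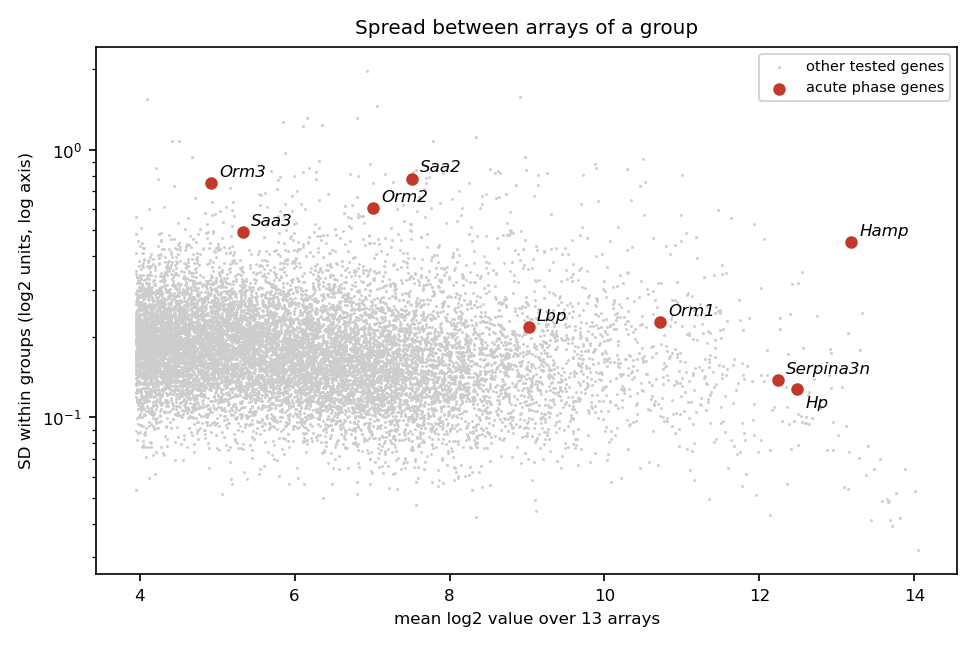
Each grey point is 1 tested gene, with its mean log2 value over 13 arrays on the horizontal axis and its SD within groups on the vertical log axis; red points are the 9 acute phase genes. Saa2, Orm3, Orm2, Saa3 and Hamp lie towards the upper edge of the cloud, with SDs of 0.45 to 0.78, while Hp and Serpina3n lie inside it. The SD of Hamp comes mainly from CANA, where it was 0.78, beside 0.13 in HFD and 0.19 in CR.

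The genes did not share 1 profile over the 13 arrays. Among the 36 pairs of members, the Pearson correlation had a median of 0.19, exceeded 0.5 in 8 pairs and was below zero in 11. These values also hold the differences between group means. With the group means subtracted, r went from 0.09 to 0.64 for Orm3 with Lbp and from 0.08 to -0.33 for Orm3 with Hamp. Both were picked after their values were seen. One set of arrays was ordered alike by Saa2 and Orm2 (r = 0.81, rho = 0.76) and by Saa2 and Hp (r = 0.69, rho = 0.59). Another pair was Lbp and Serpina3n (r = 0.85, rho = 0.79), which kept an r of 0.79 after the group means were subtracted. Hamp ran opposite to Hp (r = -0.68, rho = -0.37), with CANA array 2 the lowest for Hamp and the highest for Hp. These coefficients describe genes measured on the same arrays and carry no test.

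HFD array 1 and CANA array 4 were the arrays with the highest and the third highest mean deviation over the 9 genes, 0.40 and 0.26 above the gene means, and CR array 1 lay between them at 0.29. The lowest were CR array 2 (-0.35), HFD array 2 (-0.24) and CANA array 1 (-0.21), so each group held arrays at both ends. Outside the acute phase genes, the 8 tested genes whose values followed this mean deviation most closely were Skap1 (r = 0.86), Ggt6, Rad1, Slbp, Tmem45b, Cnih2, Ssh2 and Slc2a4 (0.74 to 0.78 for these 7). These genes were picked as the closest among all tested genes over only 13 arrays, so high r values can arise without any link. No test of a link was made. Skap1 averaged 4.09 (HFD), 4.12 (CANA) and 4.09 (CR), near the dimmest level tested.

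**Figure D4:**
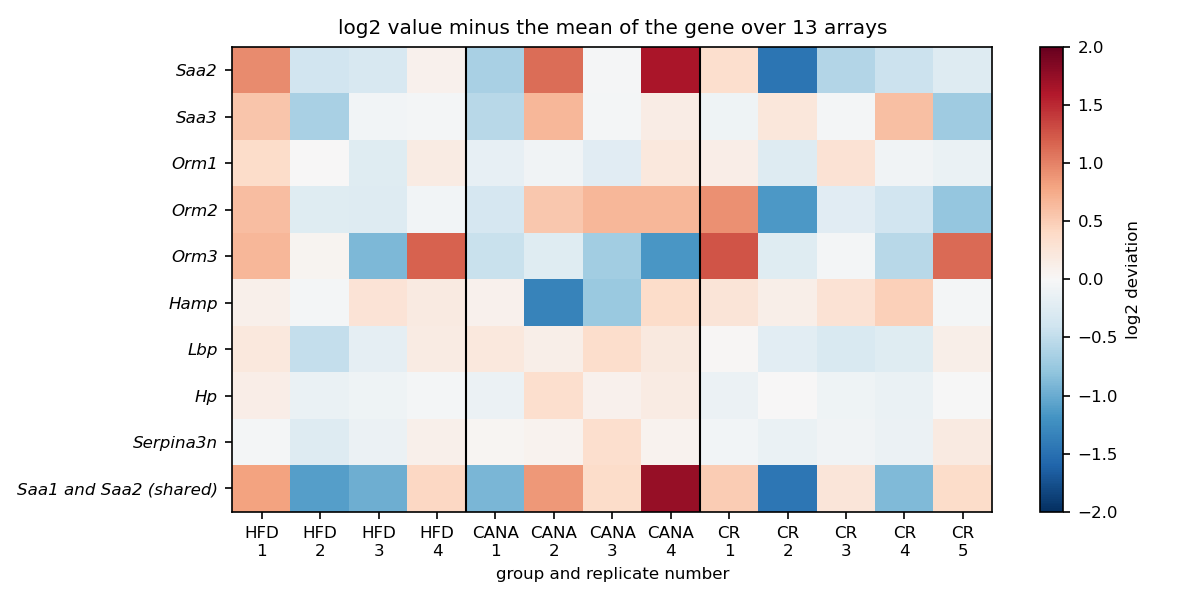
Rows are the 9 acute phase genes and the probe set shared by Saa1 and Saa2, columns are the 13 arrays by group and replicate number, and the colour is the log2 value minus the mean of that gene over all arrays. Saa2 and the shared probe set are darkest red in CANA 4 and darkest blue in CR 2, Hamp is low in CANA 2 and CANA 3, and Orm3 is high in HFD 4, CR 1 and CR 5.

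No other positive acute phase gene was called either. Of 24 listed, 21 were on the array and 20 were tested, and none was called in any comparison. In CANA against HFD 14 were above zero and 6 below (median 0.10), in CR against HFD 8 and 12 (median -0.01). The smallest p in CANA against HFD belonged to Fgl1, a liver-secreted fibrinogen-like protein, with a difference of 0.90 (SE 0.30, limma adjusted p = 0.323). Next were Il1rn, the interleukin-1 receptor antagonist (0.51, adjusted p = 0.345), and Lrg1, a leucine-rich plasma glycoprotein (0.37, adjusted p = 0.548). The fibrinogen chain genes Fga, Fgb and Fgg differed by -0.07, 0.04 and 0.11, Crp by 0.01 and Saa4, the constitutive serum amyloid A, by -0.05. Lcn2, which binds bacterial siderophores, had a difference of 0.28 and ran from 6.04 to 8.04 within CANA and from 5.57 to 8.22 within CR. Of the negative acute phase proteins, whose output drops in inflammation, 13 of 15 were tested and none was called. In CANA against HFD 7 were above zero and 6 below, with a median of 0.00133, and the smallest p values belonged to Serpina6 (-0.18), Itih1 (-0.09) and Hrg (0.12), all at a limma adjusted p of at least 0.786. Alb and Ttr, the albumin and transthyretin genes, differed by -0.05 and -0.04.

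The cytokine genes upstream were mostly dim. Of 15 ligands on the array, 8 lay below the limit for testing, among them Il6, with means of 2.52 (HFD), 2.66 (CANA) and 2.57 (CR), and Tnf, with 3.39, 3.18 and 3.31. None of the 7 tested was called, and the neutrophil-attracting Cxcl1 (-0.20), Cxcl2 (-0.12) and the gp130 ligand Ctf1 (0.08) had the smallest p in CANA against HFD (limma adjusted p of at least 0.884). Among 13 tested receptors and adaptors 1 was called, Lepr, the leptin receptor, which signals through STAT3. Lepr rose from 4.25 to 6.70 in CANA against HFD (2.45, SE 0.28, limma adjusted p = 0.00235) and exceeded CR by 2.00 (adjusted p = 0.00641). The interleukin-6 receptor subunits Il6ra and Il6st differed by 0.02 and 0.01, Osmr by 0.13 and the interleukin-1 receptor Il1r1 by 0.07. Il10rb (0.20) and Ly96, the partner of the lipopolysaccharide receptor (0.40), were next to Lepr by p, at limma adjusted p values of 0.725 and 0.812.

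None of 22 tested kinases, transcription factors and feedback genes was called. The C/EBP genes were the nearest. Cebpb differed by 0.41 in CANA against HFD (SE 0.10, limma adjusted p = 0.166), from 8.17 to 8.58, and Cebpd by 0.58 (SE 0.15, adjusted p = 0.192), from 4.41 to 4.99. In both genes the 4 CANA arrays lay above the 4 HFD arrays, as happened for 4 of the 22 genes in either direction, beside 4.9% of all tested genes. Both genes passed an unadjusted p of 0.05, as did 8.82% of all tested genes. Cebpa, which maintains the hepatocyte state, differed by -0.34, and Nr3c1, the glucocorticoid receptor gene, by -0.26 (adjusted p = 0.361). Stat3 differed by 0.16 and its feedback inhibitor Socs3 by 0.22, with unadjusted limma p values of 0.329 and 0.192. The 10 glucocorticoid targets, of which Lcn2 and Mt2 are also acute phase genes, had no called member. Their medians were 0.21 in CANA against HFD and 0.21 in CR against HFD, and the smallest p values in the first belonged to Gadd45g (1.63, adjusted p = 0.185), Tat (0.43, adjusted p = 0.286) and Mt2 (0.93, adjusted p = 0.653).

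The genes that control hepcidin were also without a call. Of 22 tested, 9 were above zero and 13 below in CANA against HFD (median -0.06), and 15 above and 7 below in CR against HFD (median 0.03). The smallest p in CANA against HFD belonged to Tmprss6, the protease that dampens hepcidin induction (-0.27, SE 0.08, limma adjusted p = 0.284), Slc40a1, the ferroportin gene (-0.32, adjusted p = 0.418), and the signal transducer Smad4 (0.26, adjusted p = 0.421). The ligand gene Bmp6 differed by -0.23 and the bone morphogenetic protein targets Id1, Smad6 and Smad7 by -0.24, -0.26 and -0.12. Atoh8, also among the 22 tested genes, had the opposite sign, with a difference of 0.08 (SE 0.25). In CANA against CR, Smad6, Smad7 and Slc40a1 differed by -0.37, -0.39 and -0.43 (adjusted p = 0.330, 0.519 and 0.234); they are named after their values were seen.

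**Figure D5:**
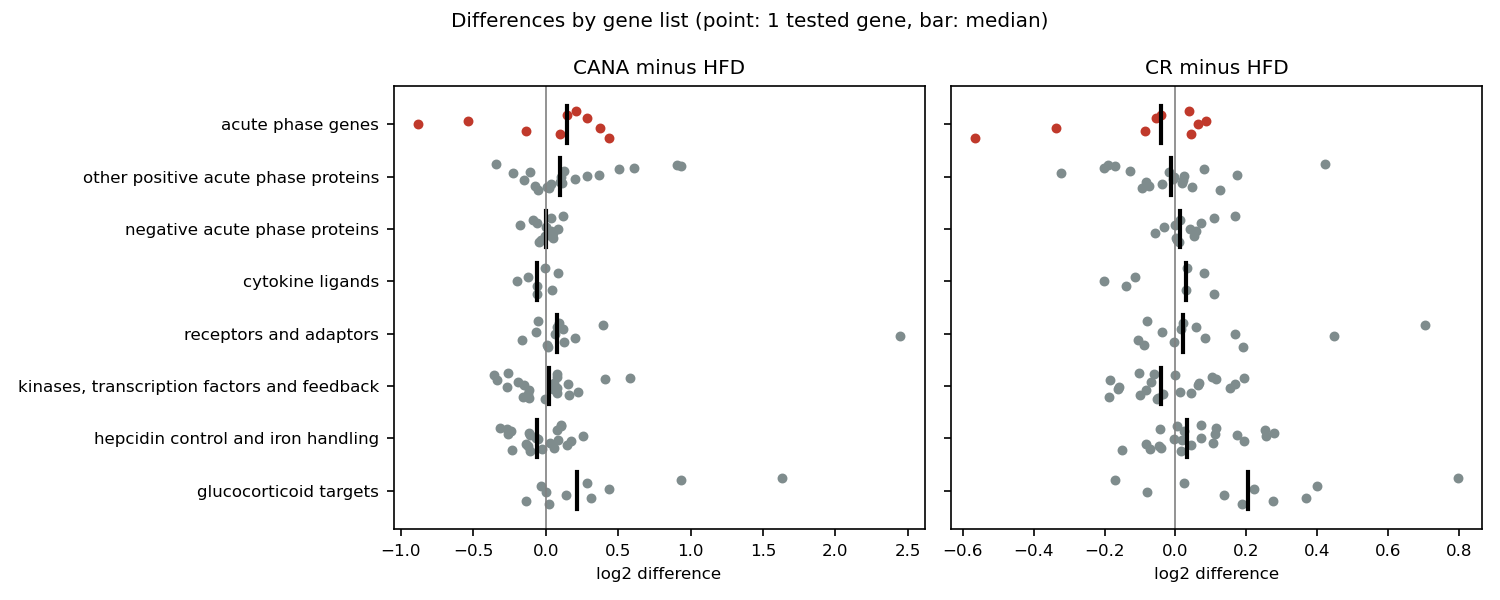
Each point is the log2 difference of 1 tested gene in CANA minus HFD (left) and CR minus HFD (right), by gene list, and each black bar is the median of the list; the horizontal axes differ. The medians lie between -0.06 and 0.21, and the point at 2.45 on the left is Lepr.

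Markers of other cells were looked at because Saa3 and Serpina3n are also made outside hepatocytes. In bulk tissue, fewer cells of a type and less RNA per cell cannot be told apart. The 12 macrophage and Kupffer cell markers were all tested and none was called. Their mean deviation ran from -0.52 to 0.35 in HFD, from -0.18 to 0.31 in CANA and from -0.63 to 0.16 in CR, and 9 of 12 were above zero in CANA against HFD (median 0.10). Of 12 neutrophil and monocyte markers 10 lay below the limit for testing. The mean level of these 12 was 3.32 to 3.40 in CANA, 3.18 to 3.32 in HFD and 3.20 to 3.30 in CR. Of 6 adipocyte markers on the array 3 were tested, and their mean level was at most 4.15 in any array. Lymphocyte markers averaged 3.69 to 4.07, cholangiocyte markers 3.99 to 4.37 and pancreas markers 3.67 to 4.07 over all arrays. Sinusoidal endothelial markers had a median of -0.13 in CANA against HFD, with 9 of 10 below zero, and stellate cell markers one of 0.02, with none called in either list. Over all tested genes 46.1% were above zero in that comparison. Of the stellate cell markers, Hgf differed by 0.41 and Ngfr by -0.54 (limma adjusted p = 0.267 and 0.195). For these 2 of 10 the groups did not overlap, beside 4.9% of all tested genes. The part of these cells in the spread of the acute phase genes was not tested.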

How the data were processed

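Liver RNA was measured on Affymetrix arrays after biotin labelling of 250 ng total RNA, per the labels. The deposited log2 values were computed by the authors in Affymetrix Expression Console by RMA (robust multi-array average), per the submitters' processing notes, which give no versions. RMA removes background, equalises the distributions of the arrays and combines the probes of a set, so a change shared by all genes would not be seen. Scanner files were not analysed here. Precision is limited by how many arrays there are.

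Of the probe sets, 23521 had exactly 1 gene symbol in the platform annotation, and 23328 of these were matched to RefSeq by Entrez identifier. The 1814 with several symbols were left out, apart from that of Saa1 and Saa2. Of several probe sets of a gene the one with the highest mean was taken, and genes below the 40th percentile of means were not tested. The test was that of limma 3.58.1 (R 4.3.3), two-sided, from 1 fit across all genes and arrays without covariates. The procedure was tested on simulated data.

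The 10 genes, the other lists, the comparisons and the settings were chosen with earlier results of these data known. From each list of other acute phase and regulatory genes, called genes and up to 3 genes with the smallest p in CANA against HFD were named, and the 8 genes most like the members; further genes of the lists are named for their known roles or after their values were seen. The settings tried are given with their effect in the closing section. Leaving out CR arrays 1 and 5 together and adding the probe set with 2 symbols were chosen after seeing the data. Same-numbered arrays of different groups deviated together (r above 0.1) in 7 of 12 pairs and not in all, and the labels tie no number to a shared animal or day, so the numbers were not taken as pairs.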

Additional observations from a re-analysis of the deposited data

Results flagged for a closer look

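Of 96 sets of arrays, each of 1 named gene in 1 group, 6 held an array that stood apart by Dixon's test, where chance gives about 1 in 20. Of the 30 sets of acute phase genes, the probe set of Saa1 and Saa2 included, 3 did. Orm2 stood at 6.68 in CANA array 1 and at 7.56 to 7.68 in the other CANA arrays. Serpina3n stood at 12.58 in CANA array 3, against 12.28 to 12.31 in the others, and at 12.42 in CR array 5, against 12.11 to 12.18. Among the other named genes, Gadd45g stood at 8.97 in CR array 5 (others 7.28 to 7.46), Hrg at 12.19 in CR array 3 (others 12.34 to 12.38) and Smad4 at 8.05 in HFD array 4 (others 7.78 to 7.82). Hamp in CANA was not among them, since 2 of its 4 arrays were low.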

How the results depend on the processing

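None of the 27 differences of the 9 acute phase genes passed the limma threshold in any of up to 30 other settings, where the lowest adjusted p was 0.206 (Orm2, CANA minus HFD, within serial numbers 9 to 14), and the count of called members stayed 0 throughout, also at an adjusted p under 0.10. Quantile normalization and median centring moved the median gene by less than 0.1. The median of the members ran from -0.045 to 0.24, -0.11 to 0.040 and 0.10 to 0.26 over the settings in CANA minus HFD, CR minus HFD and CANA minus CR. Of the 27 differences, 14 kept their sign in every setting; Orm3 was not testable with genes under the 60th percentile left out.

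Signs turned within serial numbers 1 to 8 for Saa2 (-0.045) and Orm2 (-0.077) in CANA minus HFD and Orm3 (-0.036) in CR minus HFD. Within 9 to 14 they turned for Orm1 in CANA minus HFD (0.031) and CANA minus CR (0.10), and for Saa3 (-0.012) and Hamp (-0.016) in CR minus HFD. Without the CR arrays 1 and 5 they turned for Orm3 (-0.53) and Serpina3n (-0.026) in CR minus HFD and Saa3 in CANA minus CR (-0.21). With the replicate block, Orm3 (-0.14) and Serpina3n (-0.015) in CR minus HFD and Saa3 in CANA minus CR (-0.12) turned. This block called 29, 1 and 17 genes in the 3 comparisons. Of 12 arrays, 8 correlated best with an array of their own number, though such arrays were the minority of those compared. The share that chance would give was not computed. It is a hint from the data and not from the design, and the main fit does not use it. The block follows replicate numbers, while CR arrays 4 and 5 have serial numbers next to those of CANA and HFD arrays 3 and 4, so it does not follow the serial order. Leaving out 1 array at a time gave Saa3 -0.10 to 0.30 in CANA minus HFD, -0.16 to 0.24 in CR minus HFD and -0.15 to 0.26 in CANA minus CR. It gave Orm1 -0.19 to 0.012 in CR minus HFD and -0.14 to 0.026 in CANA minus CR. In CR minus HFD it gave Orm3 -0.32 to 0.37, Lbp -0.19 to 0.040, Hp -0.076 to 0.016 and Serpina3n -0.021 to 0.10. The cause of these changes was not tested; the subsets hold fewer arrays.

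Over all genes, 22 were called in CANA minus HFD. The count was 12 without a filter, 14 and 39 with genes under the 20th and 60th percentile left out, 56 at an adjusted p under 0.10, 40 with the serial number and 46 with its set in the fit, 2 within serial numbers 1 to 8 and 0 within 9 to 14. Leaving out 1 array gave 3 to 38. In CR minus HFD it was 0, with 498 at an unadjusted p under 0.05, and 1 with the serial number, its set or the replicate block; leaving out 1 array gave 0. In CANA minus CR it was 20, with 34 at an adjusted p under 0.10, 5 and 0 within the serial-number sets, and 7 to 23 without 1 array.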

Other observations

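Hamp2, the paralog of Hamp whose promoter is printed with it, had other high and low arrays than Hamp. It stood at 7.26, 7.76, 7.01 and 8.54 in HFD, at 7.46, 7.25, 7.05 and 7.46 in CANA and at 9.34, 7.10, 6.92, 8.06 and 8.92 in CR. CANA arrays 2 and 3, which were low for Hamp, lay within the range of the other arrays for Hamp2. Its differences were -0.34 in CANA minus HFD and 0.42 in CR minus HFD, with unadjusted limma p values of 0.456 and 0.332. Over the 13 arrays it had an r of 0.24 and a rho of 0 with Hamp. With Orm3 it had an r of 0.74 and a rho of 0.57, and r was 0.48 without the 2 arrays farthest from its median. CR arrays 1 and 5 and HFD array 4 were the highest arrays for both Hamp2 and Orm3. This pair was picked after the values were seen, shares its arrays, and has no test.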
